A study of Mus musculus with 7 samples.

Results

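The replication-dependent histone genes encode the core histones H2A, H2B, H3 and H4, which form the nucleosome, and the linker histone H1, which binds the DNA between nucleosomes. They were taken as all non-control probes whose gene name on the array begins with Hist1h, Hist2h, Hist3h or Hist4h, the number standing for the cluster in which the gene lies. This rule found 49 gene names on 55 probes, of 34797 names on 55681 probes, with 6 names for H1, 14 for H2A, 12 for H2B, 8 for H3 and 9 for H4. Of the 49 names, 44 had a probe that passed the detection filter (well above background on at least 3 of the 7 arrays) and were tested among 18231 genes.

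RNA came from naive CD8 T cells of mouse lymph nodes, sorted for CD8b and for low CD44, and was measured on 7 single-colour microarrays. All mice were OT-1het and Rag-/-, that is, heterozygous for a transgenic T cell receptor against an ovalbumin peptide and without the recombinase that makes other receptors. The 3 WT samples had their own Lck gene, which encodes the kinase that starts T cell receptor signalling. The 4 other samples, called Lck-off here, came from Lck-/- mice with a knocked-in Lck that had been turned off by leaving doxycycline out of the diet for 7 days. The labels name neither the promoter of the knocked-in Lck nor the age of the mice nor the diet of the WT mice, and Lck-/- mice still on doxycycline were not analysed here, so loss of Lck, the drug's withdrawal and the background cannot be told apart. The samples of a group are described as biological replicates, not as single animals, so the p-values measure the spread between these samples.

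Each value is a log2 intensity relative to the 75th percentile of its array, so 0 is that percentile. The median of the log2 differences, Lck-off minus WT, over all genes tested was -0.01. Lck stood at 8.99, 9.02 and 8.98 in WT and at 8.52, 8.83, 8.60 and 8.55 in Lck-off, with no overlap, a log2 difference of -0.37 (SE 0.09, limma adjusted p = 0.0493). Whether its probe lies in the deleted part of the gene was not determined here. Cd8a and Cd8b1 were well above background on every array, and all 9 CD8 T cell markers were measured. Of markers of other cells, 3 of 5 for B cells, 2 of 7 for immature thymocytes and 3 of 6 for red blood cell precursors were well above background on no array, as were 0 of 12 for macrophages and dendritic cells and 0 of 4 for NK cells.

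Replication-dependent histone genes lie in clusters, most of them without introns, and are transcribed mainly in S phase, when new DNA needs new nucleosomes. Most of their mRNAs end not in a poly(A) tail but in a short stem-loop, which the stem-loop binding protein Slbp holds through processing, export and translation, and after which the U7 ribonucleoprotein guides the cut. Some of the genes can also give polyadenylated mRNA, above all in cells that have stopped dividing, and naive T cells divide rarely. The labelling kit that the labels name starts copying RNA at poly(A) tails, and its yield on stem-loop mRNA was not tested here.

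The probes show how closely the family is related. The 5 H2A probes with the brightest signal, and that of Hist1h2an, are given because they cover the same end of the coding sequence: each ends in a stop codon in the open frame. Capitals mark the 29 bases that the first 5 share without a mismatch, and in Hist1h2an the first 11 of them, where its run of identity breaks off.
Hist1h2ah: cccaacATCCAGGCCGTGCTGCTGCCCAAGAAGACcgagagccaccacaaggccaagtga
Hist2h2aa2: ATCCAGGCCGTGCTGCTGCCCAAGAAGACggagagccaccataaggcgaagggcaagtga
Hist1h2af: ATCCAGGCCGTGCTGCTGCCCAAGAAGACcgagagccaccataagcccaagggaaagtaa
Hist1h2ak: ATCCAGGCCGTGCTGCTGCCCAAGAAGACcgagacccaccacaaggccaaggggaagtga
Hist2h2ac: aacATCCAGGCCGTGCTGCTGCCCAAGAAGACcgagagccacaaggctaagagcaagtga
Hist1h2an: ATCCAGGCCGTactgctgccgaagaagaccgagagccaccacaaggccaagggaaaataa
They lie, on mm9, at chr13:22127035-22127094 on the minus strand, chr3:96049837-96049896 on the plus strand, chr13:23626113-23626172 on the plus strand, chr13:21845304-21845363 on the minus strand, chr3:96024378-96024437 on the minus strand and chr13:21878695-21878754 on the minus strand. Pairwise identity over their bases, aligned without gaps, ran from 70.2% to 94.4%. Pairs with Hist2h2ac gave 70.2% to 77.2%, and all other pairs 86.7% to 94.4%. An alignment without gaps lowers the value where 1 sequence lacks bases. The first 5 also share a run of 25 letters with a probe of H2afj, which is listed below with the variants made outside S phase. H2afj had a WT mean of 8.14 and a difference of 0.12. A signal on any of them can therefore come from several H2A genes, and for the first 5 also from H2afj. A list of values for these genes is not a list of independent measurements.

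A second set of sequences shows the 3' ends. The stem-loop, searched by its histone consensus in the probe's own orientation, lay whole in 6 of 55 histone probes and in 7 of all 55681 probes, 0.0126% of them. The capitals mark the bases that pair to form the stem, and the letters between them the loop.
Hist1h3a: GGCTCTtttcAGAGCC
Hist1h3i: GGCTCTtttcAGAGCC
Hist2h2bb: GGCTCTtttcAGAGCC
Hist1h4m: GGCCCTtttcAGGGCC
These stem-loops lie on mm9 at chr13:23853759-23853774, minus strand, chr13:21874789-21874804, minus strand, chr3:96074094-96074109, plus strand, and chr13:21903998-21904013, plus strand. The probe of Hist3h2ba instead holds AATAAA, the polyadenylation signal, in capitals here.
Hist3h2ba: taatggtattAATAAAtttggttca
It lies on mm9 at chr11:58762999-58763023, plus strand. AATAAA was in 2 of 55 histone probes and in 10.1% of all probes on the array.

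In Lck-off cells 4 of the 44 histone genes rose and none fell: Hist3h2ba and Hist1h2bc, which encode H2B, Hist3h2a, which encodes H2A, and Hist2h3c2-ps, named on the array as an H3 pseudogene. These 4 are 9.09% of the genes tested, beside 3.80% higher over all genes (4.57% were lower and 8.38% changed in either direction). The median difference over the 44 genes was 0.35, from -0.59 to 1.59, with 38 above 0, beside -0.01 and 48.3% above 0 over all genes. All Lck-off arrays lay above all WT arrays for 12 of the 44 (27.3%, beside 9.80% over all genes), and for none did all lie below (12.0% over all genes). At an unadjusted p under 0.05, limma gave 18 of the 44 higher and 0 lower; over all genes 21.5% passed in either direction. Without Lck-off replicate 3 the count of genes that rose was 8, and within slide row 1 (WT replicate 3, Lck-off replicates 2 and 3) or row 2 (the other arrays) it was 0. The row values stand beside the genes below. In bulk RNA, more cells that make a transcript and more of it per cell cannot be told apart.

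**Figure D1:**
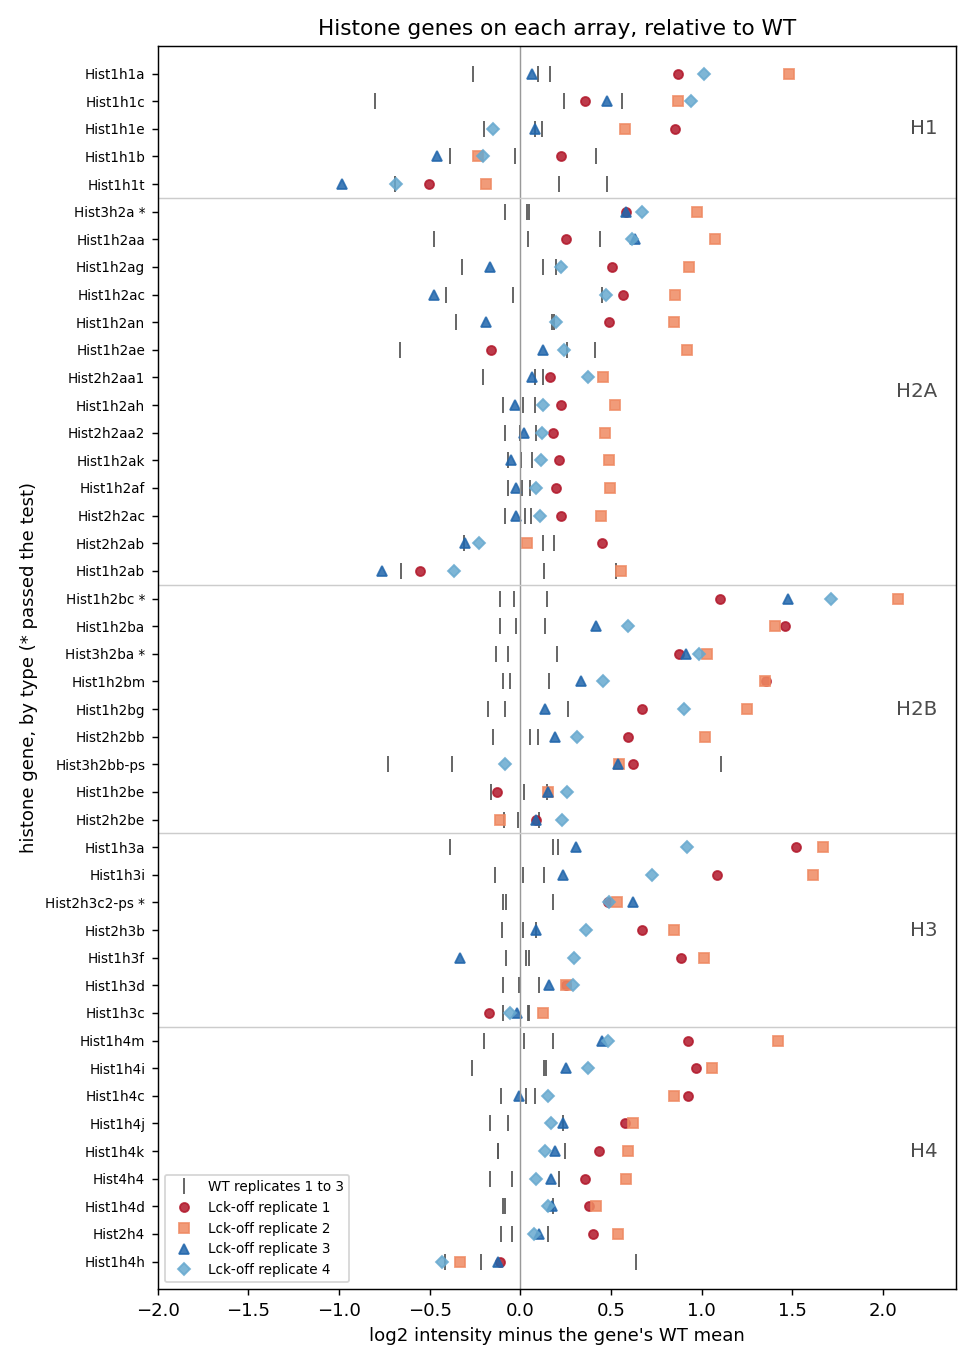
Each row is 1 of the 44 histone genes tested, grouped by type, and the horizontal axis is its log2 intensity on an array minus its mean over the 3 WT arrays; ticks are the WT arrays, coloured symbols the 4 Lck-off arrays, and an asterisk marks a gene that passed the test. Most coloured symbols lie to the right of 0, with Lck-off replicates 1 and 2 farthest out and replicate 3 nearest the WT ticks, while the 4 genes with an asterisk keep all 4 symbols clear of the ticks.

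H2B, the partner of H2A in the nucleosome, held the largest rises. Of its 12 names 9 were tested: 2 rose (22.2%, beside 3.80% over all genes) and 7 did not pass. All 9 differences were above 0, beside 48.3% over all genes, with a median of 0.74. Hist3h2ba, now named H2bu2, stood at 1.78, 2.05 and 1.71 in WT and at 2.72, 2.87, 2.76 and 2.83 in Lck-off. The 4 Lck-off values lay close together and well above the WT values, and the log2 difference was 0.95 (SE 0.10, limma adjusted p = 0.00176), or 1.93-fold. It was 1.10 in slide row 1 and 0.87 in row 2.

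Hist1h2bc, now H2bc4, had the largest difference of any histone gene tested. It stood at -0.73, -0.65 and -0.47 in WT and at 0.49, 1.47, 0.86 and 1.10 in Lck-off. Replicate 2 was the highest and replicate 1 the lowest Lck-off array, and none met a WT value. The log2 difference was 1.59 (SE 0.22, limma adjusted p = 0.00509), or 3.02-fold, with 1.63 in slide row 1 and 1.48 in row 2. Its size depended on the background correction: it was 1.23 with normexp and 1.24 in a fit to the deposited table, both past the test.

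Other H2B genes were high on some Lck-off arrays and nearer WT on others. Hist1h2ba, which encodes the testis H2B, stood at 1.81, 1.56 and 1.65 in WT and at 3.13, 3.08, 2.09 and 2.27 in Lck-off. Hist1h2bm stood at 2.58, 2.32 and 2.36 in WT and at 3.78, 3.77, 2.75 and 2.87 in Lck-off. For both, Lck-off replicates 1 and 2 were more than 1 log2 unit above the WT mean and replicates 3 and 4 a smaller step above it, with no overlap. The differences were 0.97 (95% interval 0.32 to 1.62, limma adjusted p = 0.0846) and 0.87 (0.20 to 1.54, limma adjusted p = 0.126). Hist2h2be, a gene of the chromosome 3 cluster, had 0.07 (-0.16 to 0.30) with overlapping groups, and Hist1h2be 0.11 (-0.17 to 0.39), so that differences within this histone ranged from 0.07 to 1.59.

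H2A held the brightest probes and small differences. Of its 14 names, all tested, 1 rose (7.14%, beside 3.80% over all genes) and 13 did not pass. For H2A, 12 differences were above 0, beside 48.3% over all genes, with a median of 0.24. Hist3h2a, now H2aw, stood at 2.36, 2.49 and 2.48 in WT and at 3.03, 3.42, 3.03 and 3.11 in Lck-off. All 4 Lck-off arrays lay above WT, replicate 2 the highest, with a log2 difference of 0.70 (SE 0.11, limma adjusted p = 0.00970), or 1.63-fold, and 0.74 and 0.65 in slide rows 1 and 2. Hist3h2a and Hist3h2ba are the only Hist3 names on the array besides Hist3h2bb-ps, a pseudogene by its name, whose difference was 0.40 (95% interval -0.60 to 1.41).

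The 5 H2A probes that share 29 bases had much the same differences. Hist1h2ah stood at 7.83, 7.93 and 8.00 in WT and at 8.14, 8.44, 7.89 and 8.04 in Lck-off. Replicate 3 lay inside the WT range and replicate 2 highest, and the difference of 0.21 (95% interval -0.10 to 0.52, limma adjusted p = 0.443) did not pass. Hist2h2aa2, Hist1h2af, Hist1h2ak and Hist2h2ac had differences of 0.20, 0.19, 0.19 and 0.19. The dimmer, upstream probe of Hist1h2ak gave 0.36. On the brightest, Hist1h2ah, the processed intensity ran from 47150 to 73770 and no histone spot was flagged as saturated. Hist1h2ab had the most negative H2A difference, -0.28 (95% interval -1.18 to 0.61, limma adjusted p = 0.756), with WT values of 0.39, 1.58 and 1.18 and Lck-off values of 0.49, 1.60, 0.29 and 0.68. Its arrays spread widely within each group and overlapped.

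For H3, the histone that carries most of the well-known methylation and acetylation marks, 8 names were on the array and 7 were tested. Of these, 1 rose (14.3%, beside 3.80% over all genes), 6 did not pass, and the median difference was 0.49. Hist2h3c2-ps stood at -1.13, -1.11 and -0.85 in WT and at -0.55, -0.50, -0.41 and -0.54 in Lck-off. The Lck-off arrays lay in a narrow band above WT, with a log2 difference of 0.53 (SE 0.09, limma adjusted p = 0.0127), or 1.45-fold, and 0.40 and 0.58 in slide rows 1 and 2. Without WT replicate 2 its adjusted p was 0.0575. With normexp, another background correction, the difference was 0.33, and 0.32 in a fit to the deposited table, both past the test, while without a filter on dim probes the adjusted p was 0.0741.

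Hist1h3a stood at -0.20, 0.40 and 0.37 in WT and at 1.71, 1.85, 0.49 and 1.11 in Lck-off, a difference of 1.10 (95% interval 0.31 to 1.90, limma adjusted p = 0.107). Hist1h3i stood at -0.92, -0.77 and -0.65 in WT and at 0.30, 0.83, -0.55 and -0.06 in Lck-off, a difference of 0.91 (0.22 to 1.61, limma adjusted p = 0.124). In both genes replicates 1 and 2 were highest and replicate 3 lay just above the highest WT array. With 1 array left out, each passed in 1 of 7 fits, the one without Lck-off replicate 3 (limma adjusted p of 0.0329 and 0.0438). In the other fits the limma adjusted p reached 0.256 and 0.262. Hist1h3d had a small difference of 0.24 with tight groups, 6.35, 6.55 and 6.44 against 6.70, 6.70, 6.61 and 6.74, and did not pass (limma adjusted p = 0.116). Hist1h3c stood at 1.55, 1.55 and 1.41 in WT and at 1.33, 1.63, 1.48 and 1.44 in Lck-off. Its groups overlapped, and the difference was -0.03 (95% interval -0.25 to 0.18, limma adjusted p = 0.892).

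H4, which pairs with H3 in the nucleosome and is among the most conserved proteins known, had 9 names, all tested, and none passed. In limma 4 of the 9 had an unadjusted p under 0.05, beside 21.5% of all genes in either direction. The median H4 difference was 0.34 and 8 of 9 were above 0, beside 48.3% over all genes. Hist1h4m was the H4 gene with the largest difference, with 2.64, 2.42 and 2.80 on the WT arrays and 3.55, 4.04, 3.07 and 3.10 on the Lck-off arrays, or 0.82 (95% interval 0.25 to 1.39, limma adjusted p = 0.0961). The bright probe of Hist1h4k gave 0.34 (-0.01 to 0.69), and its dimmer probe, nearer the 5' end, 0.39. The 3 probes of Hist1h4i did not give the same answer: the brightest gave 0.66 with no overlap, the next one along -0.12 and the last 0.28. Hist1h4h was the only H4 gene with a negative difference, -0.25 (-0.83 to 0.33), and Hist4h4, alone in its cluster, had 0.30 (-0.04 to 0.64).

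H1 had 6 names and 5 tested genes, none of which passed. In limma 1 of the 5 had an unadjusted p under 0.05, beside 21.5% of all genes in either direction. For H1, 3 differences were above 0, beside 48.3% over all genes, and the median was 0.34. Hist1h1a stood at -0.49, -0.06 and -0.13 in WT and at 0.64, 1.26, -0.16 and 0.79 in Lck-off, a difference of 0.86 (95% interval 0.13 to 1.59, limma adjusted p = 0.165). Replicate 3 was inside the WT range, and without it the gene passed, with a limma adjusted p of 0.0279. This was the only 1 of 7 fits with an array left out in which Hist1h1a passed, and in the others the limma adjusted p reached 0.342. Hist1h1t, which encodes the testis H1, had the most negative difference of the 44, -0.59 (-1.30 to 0.12, limma adjusted p = 0.326), with WT values of -2.48, -2.75 and -3.66 and Lck-off values of -3.47, -3.15, -3.95 and -3.65. It was dim: well above background on all 3 WT arrays but on 1 of 4 Lck-off arrays, and the difference was -0.24 with normexp. Hist1h1b had -0.17 (-0.69 to 0.36), and Hist1h1d was well above background on no array.

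Detection was counted for every name. Of the 49, 42 to 44 were well above background on each WT array and 42 to 47 on each Lck-off array, and 41 on all 7. No name was detected in WT alone, and 3 were detected in Lck-off alone. Lck-off had 4 arrays against 3 for WT, so detection on any array was easier to reach there. The same count over all genes is not given here, so these 3 are not read as rises. Hist1h2bb, an H2B gene, was well above background on Lck-off replicates 1 and 2 and on no WT array. It stood at -3.63, -3.75 and -4.08 in WT and at -2.60, -2.37, -4.16 and -3.41 in Lck-off, so that replicate 3 lay below all WT arrays, the groups overlapped and no fold is given. Hist1h2bq was well above background on Lck-off replicate 2 alone and Hist1h3g on replicates 2 and 4, again with no fold. All 3 were too dim for the test.

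**Figure D2:**
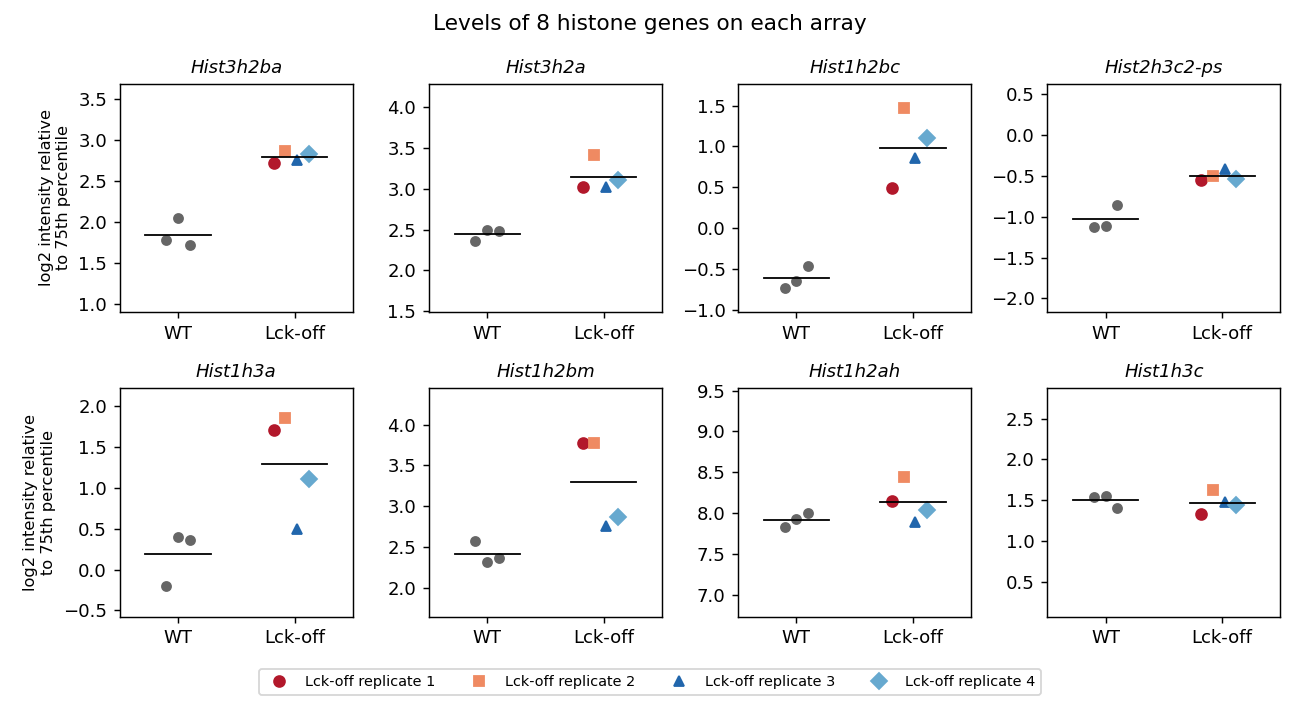
Each panel is 1 histone gene and shows its log2 intensity relative to the 75th percentile of its array on the vertical axis for the 3 WT and 4 Lck-off arrays, with horizontal bars at the group means; the panels differ in their range but not in their span. The 4 genes of the upper row, which passed the test, have all Lck-off symbols above WT, Hist1h3a and Hist1h2bm have replicates 1 and 2 far above replicate 3, and Hist1h2ah and Hist1h3c overlap with WT.

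The split between arrays ran through most of the family. Relative to each gene's WT mean, the median of the 44 genes was 0.47, 0.61, 0.11 and 0.23 on Lck-off replicates 1 to 4, and -0.08, 0.01 and 0.08 on the WT arrays. The number of histone genes above all 3 WT arrays was 33 on replicate 1, 38 on replicate 2, 14 on replicate 3 and 30 on replicate 4. In percent these are 75, 86.4, 31.8 and 68.2, beside 25.9, 35.7, 27.3 and 24.0 of all genes, so replicate 3 was the array on which the histone share came closest to that of all genes. Over the 40 genes that did not pass, the median was 0.42, 0.59, 0.09 and 0.21 on the 4 arrays. Replicates 2 and 3 share slide row 1, and replicates 1 and 4 row 2, so the high and the low arrays were not divided by row. Within rows the median difference over the 44 genes was 0.20 in row 1 and 0.40 in row 2.

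**Figure D3:**
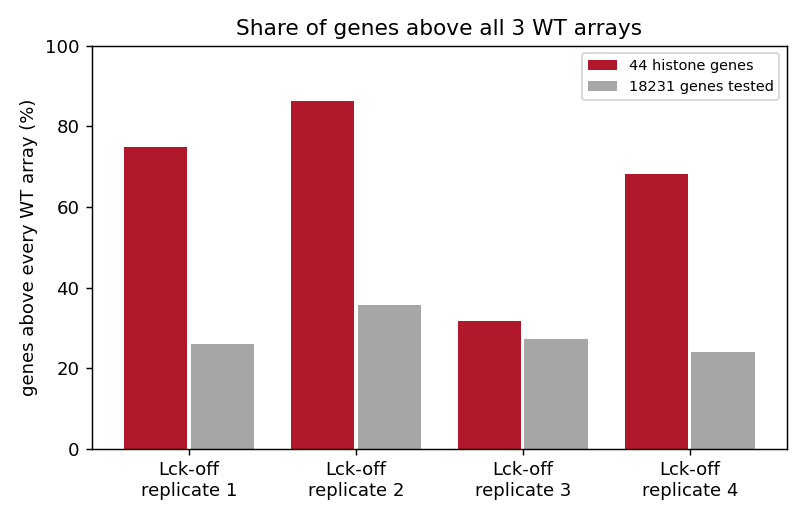
Bars give the percentage of genes whose log2 intensity on an Lck-off array was above all 3 WT arrays, for the 44 histone genes tested (red) and all 18231 genes tested (grey). The histone share was 75%, 86.4%, 31.8% and 68.2% on replicates 1 to 4, against 25.9%, 35.7%, 27.3% and 24.0% of all genes.

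By cluster, Hist1 on chromosome 13 held 31 of the tested genes, of which 1 rose (3.23%), with a median difference of 0.35. Hist2 on chromosome 3 held 9, of which 1 rose (11.1%), with a median of 0.26. Hist3 on chromosome 11 held 3, of which 2 rose (66.7%). Over all genes 3.80% were higher, so the share in Hist1 was near that of all genes, and the other clusters are small.

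Probes were also sorted by where they lie, a division made after the values had been seen. The 5 tested probes that hold the whole stem-loop had a median difference of 0.82, from 0.26 to 1.10. The 12 tested probes without a stem-loop that start at base 500 of their transcript or beyond had a median of 0.44, from -0.59 to 1.59, and all 4 genes that rose were measured by such probes. The 31 tested probes that start earlier had a median of 0.33, from -0.28 to 0.97. Genes whose probe shares a run of 25 letters with another probe, or matches several RefSeq transcripts, were 17, with a median of 0.28, and the other 27 had 0.53. The brightest histone probes were those at the coding end of H2A, and the part of probe place and brightness in the differences was not tested.

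**Figure D4:**
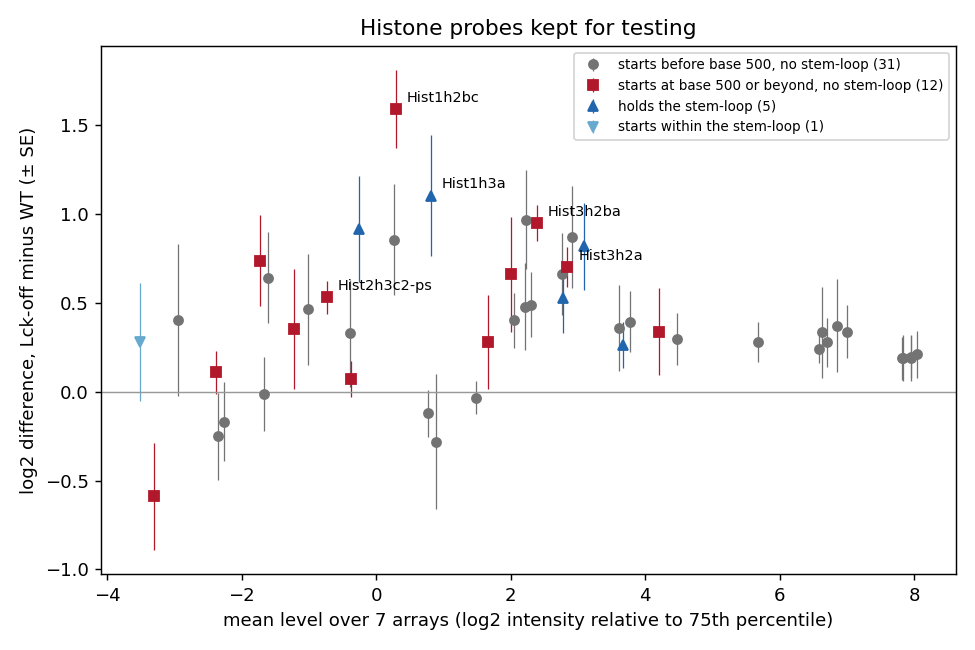
Each point is a tested histone probe, placed by its mean level over the 7 arrays (log2 intensity relative to the 75th percentile, horizontal) and by its log2 difference, Lck-off minus WT, with bars of 1 SE (vertical); colour and shape give its place in the transcript. The 5 probes with a stem-loop lie at 0.26 to 1.10, the 4 labelled genes that rose are among the late probes (Hist1h3a is labelled as a stem-loop probe), and the brightest probes, at the right, lie near 0.2.

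The promoters of the Hist3 pair are shown because both of its genes rose. They are RefSeq sequence of GRCm38.p6, 150 bases of each window, on the plus strand, at chr11:58948761-58948910 for Hist3h2ba and chr11:58954535-58954684 for Hist3h2a. Capitals mark CCAAT on either strand, and likewise TATAAA and the octamer ATGCAAAT.
Hist3h2ba: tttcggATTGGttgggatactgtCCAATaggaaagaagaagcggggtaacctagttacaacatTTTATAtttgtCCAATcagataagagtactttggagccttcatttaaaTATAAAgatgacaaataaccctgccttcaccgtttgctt
Hist3h2a: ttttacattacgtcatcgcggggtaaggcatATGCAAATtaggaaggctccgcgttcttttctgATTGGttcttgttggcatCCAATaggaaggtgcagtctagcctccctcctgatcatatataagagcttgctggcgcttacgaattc
Of the 49 names, 41 had a promoter in the RefSeq table, from 250 bases before the start to 50 after. CCAAT, searched on both strands, was in 36 of these 41, against 37.9% of 27025 promoters, TATAAA in 25, against 14.2%, and ATGCAAAT in 12, against 1.75%. The octamer was in 7 of 14 H2A and 5 of 9 H2B promoters and in 0 of 6 for H1, 0 of 5 for H3 and 0 of 7 for H4. A match describes these letters in this window and says nothing of what binds there.

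Genes for making and processing histone mRNA were followed as a list. Of 45 names for histone transcription and mRNA processing on the array 40 were tested: 1 rose, 1 fell and 38 did not pass, beside 3.80% higher and 4.57% lower over all genes, with a median difference of 0.01. At an unadjusted p under 0.05 limma gave 5 higher and 7 lower, beside 21.5% of all genes in either direction. Ctif, which brings translation factors to capped and stem-loop mRNAs, stood at -0.78, -0.94 and -1.13 in WT and at -2.33, -2.17, -2.46 and -2.76 in Lck-off. It fell by 1.48 (SE 0.15, limma adjusted p = 0.00184) on the log2 scale, with no overlap, and the difference was -0.80 with normexp and -0.74 in a fit to the deposited table. Cdkn1b, an inhibitor of cyclin-dependent kinases, rose by 0.31 (SE 0.07, limma adjusted p = 0.0335), a call that no fit with 1 array left out kept. Slbp had -0.42 (limma adjusted p = 0.0830) with no overlap, and E2f1, Ccne1 and Cdk2 had -0.62, -0.31 and -0.34. Papd7, Zcchc11 and Smg1 of the same list had 0.53, 0.35 and 0.18, also with no overlap. Papd5 and Snrpe had -0.38 and -0.16, again with no overlap. Over all genes 9.80% had no overlap and were higher, and 12.0% had none and were lower. Slbp and the genes named after it did not pass the threshold.

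Of 42 names for DNA replication and S phase 38 were tested: 0 rose, 7 fell and 31 did not pass, with a median difference of -0.18. The percentage called lower over all genes was 4.57. At an unadjusted p under 0.05 limma gave 0 higher and 13 lower, beside 21.5% of all genes in either direction. Uhrf1, which helps copy DNA methylation to new strands, fell by 0.96 (SE 0.09, limma adjusted p = 0.00131), from 1.54, 1.43 and 1.60 to 0.51, 0.55, 0.74 and 0.47. Pole2, a subunit of DNA polymerase epsilon, fell by 0.74 (SE 0.09, limma adjusted p = 0.00328), and Top2a, a topoisomerase of dividing cells, by 1.68 (SE 0.25, limma adjusted p = 0.00766). Top2a was dim, with a mean of -4.59 in Lck-off and not well above background on every array, and its fall depended on the background correction: the difference was -0.38 with normexp and -0.32 in a fit to the deposited table. The other genes of the list that fell were Pole, Gins1, Pola1 and Mki67. On each Lck-off array the list's median level (1.44, 1.43, 1.27 and 1.37) lay below that of the 3 WT arrays (1.73, 1.71 and 1.66).

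Histone chaperones, which carry new histones to DNA, gave 1 rise and 3 falls among 29 tested, beside 3.80% higher and 4.57% lower over all genes, with a median difference of -0.07. At an unadjusted p under 0.05 limma gave 2 higher and 8 lower, beside 21.5% of all genes in either direction. Chaf1a, the large subunit of chromatin assembly factor 1, fell by 1.20 (SE 0.14, limma adjusted p = 0.00269), from -1.68, -1.30 and -1.71 to -2.51, -2.86, -2.90 and -2.79. The difference was -0.52 with normexp and -0.48 in a fit to the deposited table. Daxx, a chaperone of the H3.3 variant, stood at 5.32, 5.75 and 5.65 in WT and at 6.59, 6.43, 6.32 and 6.52 in Lck-off and rose by 0.89 (SE 0.12, limma adjusted p = 0.00509). Rbbp7 fell by 0.34 (limma adjusted p = 0.0408) and Set by 0.29; without any 1 of the 7 arrays the count of falls was 1. Of 16 names for histone variants made outside S phase 10 were tested, and Cenpa, the centromere's H3, fell by 0.52 (SE 0.10, limma adjusted p = 0.0212), a call kept in 4 of 7 fits with an array left out. The other 9 did not pass (1 was higher at an unadjusted p under 0.05 in limma), and the median was 0.02. Among them was H2afj, which shares probe bases with the brightest H2A genes and so is not measured apart from them.

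Markers of other cells were compared in the same arrays. Dntt, an immature lymphocyte gene, rose by 2.23 (SE 0.14), and with it the summed level of the 4 measured immature thymocyte markers, from a range of 4.84 to 4.95 over the WT arrays to a range of 6.10 to 6.46 over the Lck-off arrays, while Cd4 did not pass and Rag1 and Rag2 were not among the tested genes. Of 9 macrophage and dendritic cell markers measured, C1qb rose by 0.59 and 8 did not pass, with a median difference of 0.31. In limma 4 were higher and 0 lower at an unadjusted p under 0.05, beside 21.5% of all genes in either direction. C1qa, H2-Ab1 and Fcer1g had 1.377, 1.396 and 0.898, with overlapping groups. Cd68, Csf1r and Itgam had 0.31, 0.20 and 0.14, and Flt3 went the other way with -0.69, also with overlapping groups. Siglech had 0.10 and gave most of the list's summed level, 8.15 to 8.33 on the WT arrays and 8.25 to 8.52 on the Lck-off arrays. For red blood cell precursors 2 of 6 markers were measured, with summed levels of -2.64 to 0.87 on the WT arrays and -0.24 to 1.72 on the Lck-off arrays. The 2 B cell markers and the 1 NK cell marker measured did not pass. The part of these genes in the histone differences was not tested.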

How the data were processed

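Total RNA from 3 WT and 4 Lck-off samples was labelled with Cy3 (50 ng, Agilent Low Input Quick Amp kit, per the labels' protocols) and hybridised to 1 slide. The processed intensity, per the file headers, is the authors' Feature Extraction 10.7.3.1 output for array design 028005, with probe positions on mm9: background was subtracted and a spatial trend removed on each array alone. The deposited value table is in log2, as its values show, and how it was made is not stated. Precision is limited by the number of arrays.

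From the processed intensity log2 was taken, and the array's 75th percentile (non-control spots) subtracted. Non-uniform spots were left out. A probe was kept if 3 or more of the 7 arrays had it well above background (25578 probes), and the brightest kept probe stood for a gene name. limma 3.58.1 (R 4.3.3) fitted all genes, with Benjamini-Hochberg adjusted p under 0.05, two-sided. The code was tested on simulated data. Current symbols were matched for 47 of 49 names through a GRCm38.p6 table, used for names alone. Members and lists were chosen with earlier results of these data known. Named were all genes that passed, the 6 brightest, the 5 largest differences each way that did not pass, those detected in 1 group alone and up to 3 called genes of each list; others were picked after their values were seen, and 1 marker is not reported here by name. Alternatives were normexp (offset 50), other scalings, filters and probe rules, trended and robust moderation, the deposited table, blocks by replicate number or slide row, each row alone and each array left out; population outlier spots set to missing were added after seeing the data.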

Additional observations from a re-analysis of the deposited data

How the results depend on the processing

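The count of histone genes that rose (4) was 8 with normexp and 8 with the deposited table, which both kept the 4 and added Hist1h2ba, Hist1h2bm, Hist1h3a and Hist1h4m. It was 2 without a filter on dim probes and 0 in slide row 1 and 0 in row 2 alone (limma; 5 and 17 histone genes at an unadjusted p under 0.05), where fewer arrays were compared. It ranged from 3 (without WT replicate 2) to 8 (without Lck-off replicate 3) with 1 array left out. No histone gene fell in any of these fits. The median histone difference ranged from 0.245 to 0.44 with 1 array left out. Over all genes, the rises (693) were 358 without the filter and 85 and 0 in rows 1 and 2, and the falls (834) 359, 20 and 0 (1547 and 973 at an unadjusted p under 0.05 in row 1, 1076 and 1635 in row 2). With 1 array left out they were 449 to 646 and 473 to 759, the fewest rises without Lck-off replicate 3 and the fewest falls without WT replicate 2; the falls were 540, 504, 515 and 497 without WT replicates 1 and 3 and Lck-off replicates 3 and 4.

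Deviations of same-numbered samples from their group means had correlations of 0.106, 0.05 and -0.01 over the genes tested. For differently numbered samples they ran from -0.17 to 0.14. Values this small cannot decide whether the numbers pair the samples. With the replicate number as a block, using the 3 shared numbers, 1 histone gene rose (Hist3h2ba, limma adjusted p = 0.0374), and 193 genes rose and 181 fell in all.

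In slide row 1 alone the small negative differences of Hist1h1t, Hist1h4h, Hist1h1b and Hist1h3c were 0.11, 0.19, 0.043 and 0.15. With 1 array left out Hist1h4h ran from -0.46 to 0.067 (above 0 without WT replicate 1), Hist1h1b from -0.36 to 0.041 (above 0 without WT replicate 2) and Hist1h3c from -0.085 to 0.015 (above 0 without Lck-off replicate 1). The causes were not tested.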
